A study of Mus musculus with 4 samples.

Results

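The genes of cholesterol synthesis and its sterol regulators were examined for their position at the nuclear lamina in hepatocytes with and without *Tm7sf2*. The set was a list of 32 gene names, matched by symbol to the mouse mm9 annotation or, for *Msmo1*, by its older symbol *Sc4mol*. Of these, 31 were located among 22367 protein-coding genes, spread over 16 chromosomes. *Hmgcs1* had no entry under its name in that annotation, and no value is given for it.

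Primary hepatocytes came from *Tm7sf2*+/+ (WT) and *Tm7sf2*-/- (KO) mice on a C57BL/6 background, all young adults, and were transduced with lentivirus for Dam methylase fused to LaminB1 or for Dam methylase alone. All cells were kept in serum-free medium with insulin, dexamethasone and EGF. This gave 4 libraries, 1 per genotype and construct, each from the pooled DNA of 4 mice. The deletion is constitutive, so liver cells of the KO had lacked the gene throughout life. Only transduced cells carry the label. The data are positions along the genome and hold no expression, so neither hepatocyte markers nor the loss of *Tm7sf2* transcript could be checked in them.

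Cholesterol is built from acetyl-CoA through mevalonate, isoprenoid diphosphates, squalene and lanosterol, and a series of later steps turns lanosterol into cholesterol in the ER. The liver is a main site of this synthesis. When sterols run low, Scap carries the transcription factors Srebf1 and Srebf2 from the ER to the Golgi, where the proteases Mbtps1 and Mbtps2 release their active parts, and Insig1 and Insig2 hold Scap back when sterols are plentiful. *Tm7sf2* itself encodes a sterol reductase of the nuclear envelope (NE) and ER that acts just after Cyp51.

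DamID marks adenines of GATC sites that come close to the NE, and stretches enriched for the LaminB1 fusion over Dam alone are called lamina-associated domains (LADs). The deposited lists held 8107 LADs for WT and 16076 for KO. By the study's account the KO LADs were shorter on average, and LADs covered a like share of the genome in both genotypes. Stretches of at least 10 kb that are LAD in 1 genotype and outside every LAD of the other were listed as differential regions (DRs), 7787 found in WT only and 8208 in KO only. A gene was classed PI (periphery to interior) if at least 1 base of its span lay in a WT-only DR and IP (interior to periphery) if it lay in a KO-only DR. Genes that met both were ambiguous (AMB), and the rest were PP if a LAD of each genotype overlapped them and II otherwise. With 1 pooled library pair per genotype, no value has an error between animals and no test between genotypes was possible. The lists carry no signal or read number, so the depth behind a border is unknown here. The study reports fewer usable reads for KO than for WT, and the part of depth in the longer KO list was not tested.

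The borders that fell inside or against members are shown first, because they place the change within each gene. The border in an intron of *Stard4* is not shown. Each line gives 30 bases of the forward strand of mm9 around a KO LAD border, with the GATC in capitals.
Idi1, intron, lower border, chr13:8888218-8888247: ttgagagtccatgGATCtcatgtggctcag
Sqle, exon 1, upper border, chr15:59147191-59147220: gatttcaaaaattGATCacatctgactcgt
Cyp51, exon 10, upper border, chr5:4083160-4083189: tttctggggtgtgGATCattgttgtataat
Cyp51, exon 7, lower border, chr5:4091855-4091884: gttaaaggaggcaGATCctcgccacacact
Hsd17b7, intron, upper border, chr1:171893509-171893538: ttgtatgttagtaGATCattgtcagtaaga
Mbtps2, intron, upper border, chrX:153993261-153993290: gcagataaggaatGATCttgacattaaaat
Mbtps2, intron, lower border, chrX:154021207-154021236: caccttacaactgGATCtcatggaggcatt
Nsdhl, past the gene end, lower border, chrX:70203938-70203967: tcctgttccaaggGATCcgacaccctcaca
All 20 borders of the KO LADs on or against members lay at a GATC, as did 99.7% of the 32152 KO LAD borders of the genome when 4 bases of slack were allowed. A border can therefore be placed no finer than a GATC fragment, and how exact it is beyond that was not tested.

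*Tm7sf2* is the deleted gene and lies on chromosome 19 (6062821-6068373, minus strand). Its span was free of LADs in both genotypes and was classed II. The nearest LAD lay at a distance of 1629 kb in WT and 907 kb in KO, and neither list held a LAD within 500 kb of its start. The locus of the deleted gene thus held no nearby LAD in either genotype.

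In WT, no member touched a LAD. Over all genes, 30.4% had a WT LAD on the span, against 0 of 31 here. In KO, a LAD lay on 7 members (22.6%), with 41.7% over all genes. These 7 were *Idi1*, *Sqle*, *Cyp51*, *Msmo1*, *Hsd17b7*, *Mbtps2* and *Stard4*, and each was classed IP. The other 24 were II, and none was PI, PP or AMB. Over all genes 17.1% were IP and 5.43% were PI. Since members without a WT LAD cannot be PI or PP, the closer reference is the 15562 genes with no WT LAD on the span (the reference genes), of which 19.0% were IP. The share of IP members, 22.6%, was close to that background.

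**Figure D1:**
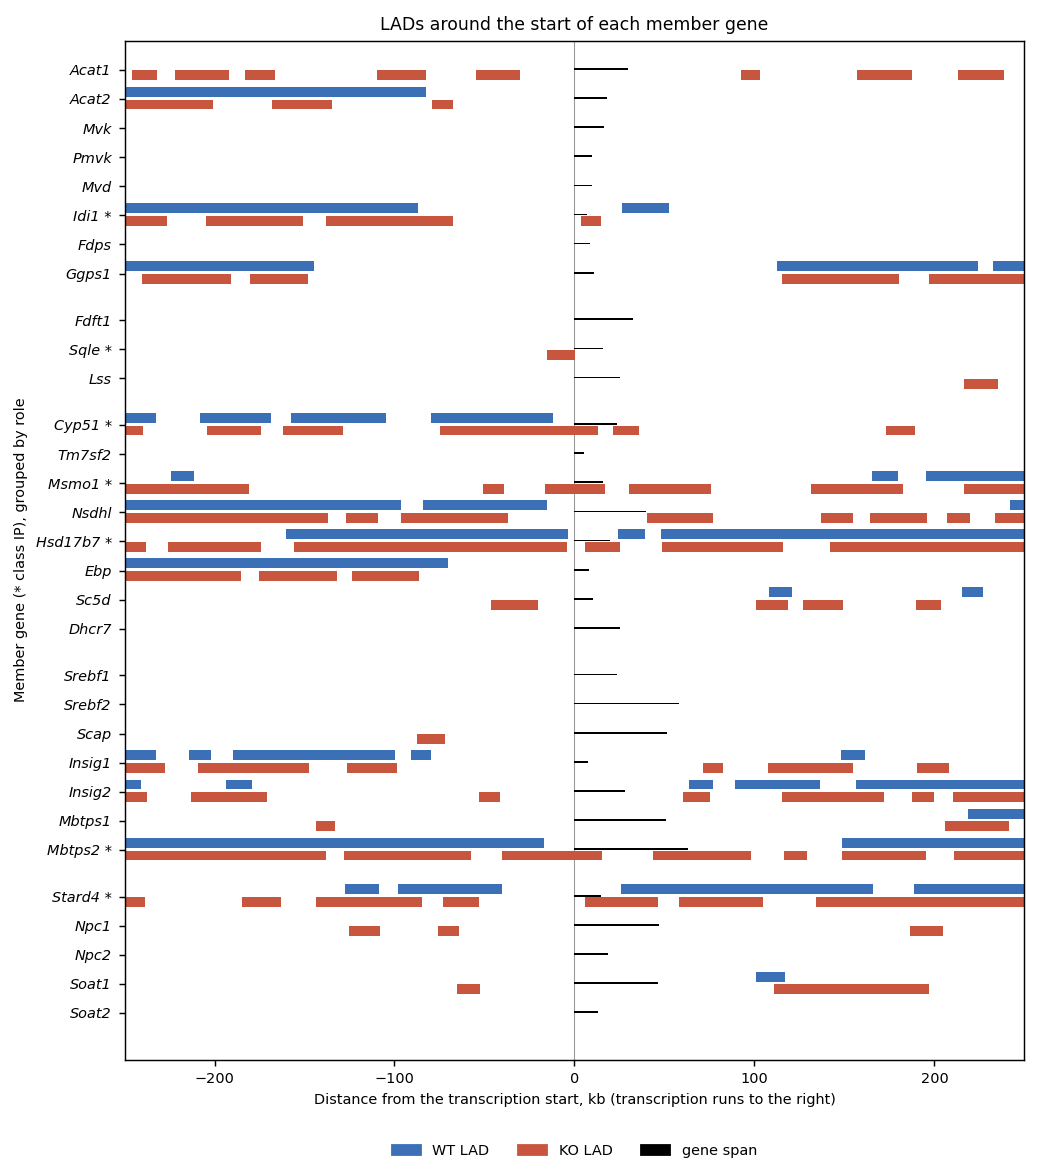
LADs within 250 kb of the transcription start of each of the 31 located members, grouped by role, with distance along the direction of transcription in kb on the x axis. Blue bars are WT LADs, red bars KO LADs and black lines gene spans. An asterisk marks the 7 members of class IP, and no blue bar reaches a black line.

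Within 250 kb of the start, 15 members (48.4%) had a LAD in WT and 20 (64.5%) in KO, with 44.0% and 74.3% of the reference genes. Rows without any bar include *Mvk*, *Pmvk*, *Mvd*, *Tm7sf2* and *Npc2*, which had no LAD of either genotype even within 500 kb. Summed over members, 76 WT LADs and 152 KO LADs lay within 500 kb of a start, which is 2.45 and 4.9 LADs per member. The reference genes had 2.48 and 4.92, nearly the same. No LAD within 500 kb was found for 14 members in WT (45.2%) and for 5 in KO (16.1%), with 38.8% and 10.7% of the reference genes.

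Among the mevalonate and isoprenoid steps, 1 of 8 located members was IP. This was *Idi1*, which interconverts the isoprenoid diphosphates that feed all later steps (chromosome 13, 8884852-8891641, plus strand). A KO LAD of 11.5 kb began in its last intron and took in exon 5, the last of 5, and 50.2% of the span. The nearest WT LAD was 19.8 kb past the end of the gene, 26 kb long, and absent from KO as a whole. At *Idi1* a LAD on the gene in KO thus stood beside a LAD found in WT only, and the LAD share of the 100 kb around its start was 23.4% in WT and 11.5% in KO.

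The remaining mevalonate members were II. *Acat1*, a mitochondrial thiolase, was 299 kb from a LAD in WT and 30.3 kb in KO, with 13 KO LADs against 5 WT LADs within 500 kb of its start. Its cytosolic counterpart *Acat2*, which makes the acetoacetyl-CoA for sterol synthesis, lay 82.7 kb from a WT LAD and 67.3 kb from a KO LAD. The kinases *Mvk* and *Pmvk* were 1062 and 1197 kb from a WT LAD and 754 and 851 kb from a KO LAD. *Mvd*, the decarboxylase that follows them, was 1675 kb from a WT LAD and 1499 kb from a KO LAD. *Fdps*, which makes farnesyl diphosphate, lay 1564 kb from a WT LAD and 485 kb from a KO LAD. *Ggps1*, on the branch to geranylgeranyl diphosphate, was 101 kb from a LAD in WT and 104 kb in KO, 1 of the 2 members that were farther in KO.

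Of the 3 genes that make squalene and lanosterol, 1 was IP. *Sqle*, the squalene epoxidase (chromosome 15, 59146632-59162747, plus strand), had a KO LAD of 15.6 kb that lay upstream of the gene and ended 575 bases inside it, in exon 1. This was 3.57% of the span, the smallest overlap of the 7 IP members, yet it held the transcription start. No WT LAD lay within 535 kb of the gene, and the LAD was the only KO LAD within the 250 kb on either side of the start. Its neighbors in the pathway were farther out. *Fdft1*, the squalene synthase, was 1206 kb from a LAD in WT and 414 kb in KO, and *Lss*, which closes squalene epoxide into lanosterol, was 1627 kb from a WT LAD and 191 kb from a KO LAD.

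The later steps from lanosterol held 3 IP members of 8. *Cyp51*, the lanosterol demethylase (chromosome 5, 4081145-4104746, minus strand), had a KO LAD at each end. At the start, a KO LAD of 87.5 kb overlapped a WT LAD of 67.7 kb that stopped 11.8 kb short of the gene, and the 24.7 kb found in KO only reached exon 7. At the other end, a separate KO LAD of 14.5 kb, shared with the neighboring gene *Akap9*, covered most of exon 10, the last exon. Together they took in 63.2% of the span and at least part of 8 of 10 exons. The LAD share of the 100 kb around its start was 38.2% in WT and 77.4% in KO.

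*Msmo1*, which oxidizes the methyl groups that must leave the sterol ring, was the only member that lay wholly inside a KO LAD (chromosome 8, 67196936-67212589, minus strand). That LAD was 33.2 kb long, covered all 6 exons and reached into *Klhl2*. The nearest WT LAD was 150 kb away. Further KO LADs lay 14.7 kb past the end of the gene and 39 kb before its start, and the LAD share of the 100 kb around the start was 0% in WT and 63.9% in KO, the widest difference among the members.

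*Hsd17b7*, the reductase that acts with *Nsdhl* in removing these groups, lay in a gap between WT LADs (chromosome 1, 171879666-171899372, minus strand). One WT LAD ended 3.47 kb before its start and another began 4.69 kb past its end. In KO a LAD of 19.3 kb began at the inner edge of the downstream WT LAD and ran into the gene. It covered 70.3% of the span and exons 5 to 9 of 9, while 14 kb of the WT LAD next to it was WT-only. The start stayed outside the LADs, 4.17 kb from the nearest in KO.

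*Nsdhl* (chromosome X, 70163896-70203853, plus strand) was II here by a margin of 101 bases. The study names it among the IP genes of this pathway, and the reason for the difference was not examined. A KO LAD of 37.2 kb began that far past its last base, whereas on the other side the KO LAD ended 36.9 kb before the start and the WT LAD 15.2 kb before it. The threshold of 1 base therefore separated *Nsdhl*, with 0 bases inside a KO-only DR, from *Sqle*, with 575. Both were drawn with their exons in the plot of gene models.

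**Figure D2:**
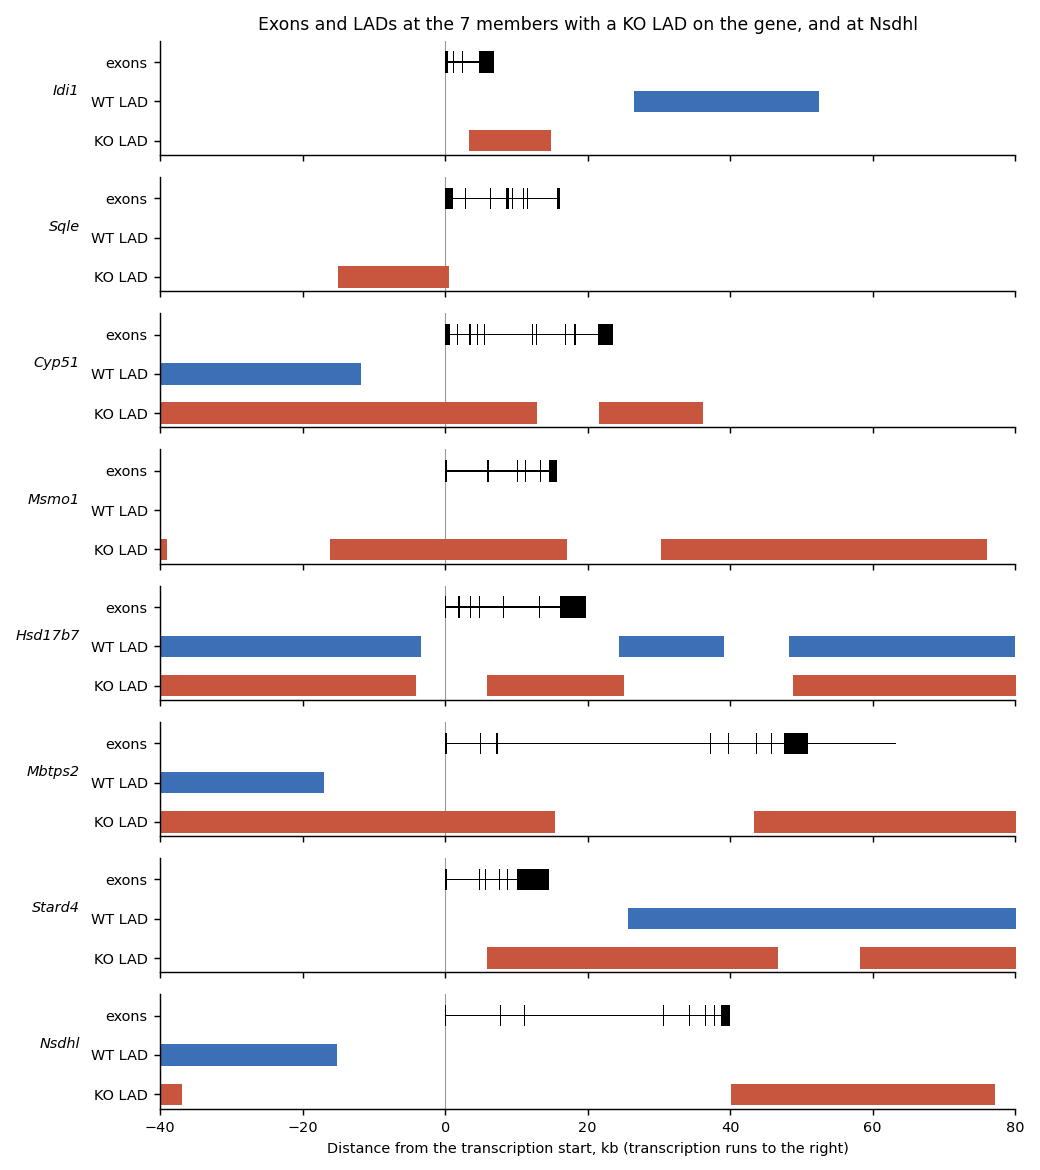
Exons (black boxes, joined by the gene span) above WT LADs (blue) and KO LADs (red) for the 7 members with a KO LAD on the gene and for *Nsdhl*, with distance from the transcription start in kb on the x axis. A red bar passes under at least 1 exon of the first 7 genes, while at *Nsdhl* it begins just past the last exon.

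The other post-squalene members were II. *Sc5d*, a sterol desaturase, was 97.8 kb from a LAD in WT and 20.3 kb in KO, where a LAD of 25.9 kb lay before its start. *Dhcr7*, which makes cholesterol in the last step of one branch, had its nearest LAD 980 kb off in WT and 236 kb off in KO. *Ebp*, a sterol isomerase, was 70.4 kb from a WT LAD and 86.2 kb from a KO LAD, the other member that was farther in KO.

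The SREBP machinery held 1 IP member of 7. *Mbtps2*, the protease that makes the second cut in SREBP proteins (chromosome X, 153973303-154036647, minus strand), had KO LADs at both ends. One, of 55.7 kb, ran from the flank over exons 1 to 3 and added 32.5 kb to the edge of a WT LAD that stopped 17.1 kb before the start. The other, of 54.5 kb, took in exons 9 to 11 and lay 50.8 kb from the nearest WT LAD. Next to the KO LAD at the start, 17.4 kb of the WT LAD that it overlapped was WT-only. KO-only DRs made up 55.9% of the span, and the 1 Mb around the start was the richest in LADs of any member, 81.2% in WT and 89.1% in KO. *Mbtps1*, which makes the first cut, was II, 168 kb from a WT LAD and 133 kb from a KO LAD.

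The transcription factors and their escorts had no LAD on the span in either genotype. *Srebf1* was 1350 kb from a LAD in WT and 465 kb in KO, and *Srebf2* 319 and 309 kb. *Scap* was 527 kb from a WT LAD and 71.9 kb from a KO LAD. The sterol-dependent anchors had similar distances in both genotypes, since *Insig1* had its nearest LAD at 79.9 kb and 64.4 kb, and *Insig2* at 35.5 and 32.3 kb, in WT and KO.

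**Figure D3:**
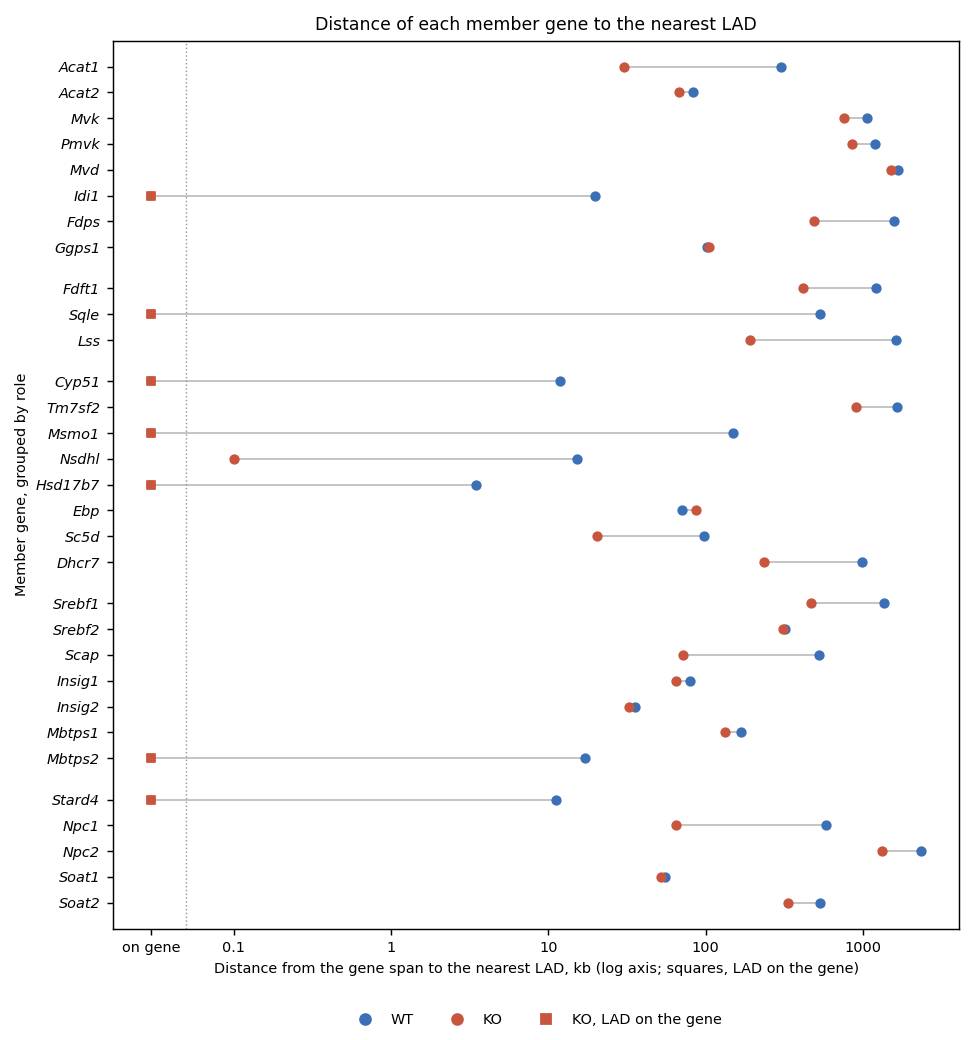
Distance from the span of each member to the nearest LAD in WT (blue) and KO (red), in kb on a log axis, with members grouped by role. Red squares at the left mark the 7 members with a KO LAD on the gene, and the red point lies to the right of the blue point for *Ggps1* and *Ebp* only.

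The start of a gene lay in a KO-only DR for 4 members, *Sqle*, *Cyp51*, *Msmo1* and *Mbtps2* (12.9%), with 12.0% over all genes. For the other IP members the DR entered from the end of the gene. The 250 bases before each of these 4 starts are given in the direction of transcription, from mm9, with CCAAT or its reverse complement ATTGG in capitals.
Sqle, plus strand, chr15:59146382-59146631: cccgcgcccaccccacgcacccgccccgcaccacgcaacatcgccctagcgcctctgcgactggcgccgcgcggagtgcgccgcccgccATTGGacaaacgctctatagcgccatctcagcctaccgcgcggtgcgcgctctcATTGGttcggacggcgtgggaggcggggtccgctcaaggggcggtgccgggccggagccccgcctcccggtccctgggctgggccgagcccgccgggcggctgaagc
Cyp51, minus strand, chr5:4104747-4104996: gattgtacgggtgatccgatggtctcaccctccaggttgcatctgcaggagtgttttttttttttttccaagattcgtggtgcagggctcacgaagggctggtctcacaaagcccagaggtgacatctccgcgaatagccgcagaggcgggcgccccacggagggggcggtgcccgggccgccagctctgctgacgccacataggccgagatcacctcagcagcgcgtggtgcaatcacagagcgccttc
Msmo1, minus strand, chr8:67212590-67212839: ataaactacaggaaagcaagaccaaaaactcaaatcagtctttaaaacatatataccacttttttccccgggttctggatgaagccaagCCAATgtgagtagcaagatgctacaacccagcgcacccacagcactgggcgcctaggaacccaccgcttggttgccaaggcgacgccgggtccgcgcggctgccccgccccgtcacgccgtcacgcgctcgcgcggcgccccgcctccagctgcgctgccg
Mbtps2, minus strand, chrX:154036648-154036897: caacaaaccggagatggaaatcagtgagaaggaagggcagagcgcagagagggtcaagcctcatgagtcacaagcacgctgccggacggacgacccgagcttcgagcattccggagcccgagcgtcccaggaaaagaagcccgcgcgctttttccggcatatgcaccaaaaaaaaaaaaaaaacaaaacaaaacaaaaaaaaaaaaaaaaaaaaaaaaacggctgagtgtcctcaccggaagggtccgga
On both strands of this window, CCAAT, the box bound by the factor NF-Y, was present in 21 of 31 members (67.7%), with 35% over all genes. The letters TCACNCCAC, a strict form of the core bound by SREBP proteins, were found in 0 members and 1.03% of genes. The looser TCACNNCAC was in 1 member, *Hsd17b7*, and 2.99% of genes. Other forms of the site were not searched, so a window without these letters may still hold an SREBP site. GATC, the site that DamID reads, was in the window of 13 members (41.9%) and of 40.2% of genes. Each window ends at the outer end of the gene span. At some members this lies before the first exon of the transcript used here, by 1.977 kb at *Srebf1* and 4.565 kb at *Insig2*. These matches describe the letters only.

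The 5 members of transport and esterification held 1 IP gene. *Stard4*, a carrier of cholesterol between membranes (chromosome 18, 33359009-33373516, minus strand), lay between WT LADs 11.1 kb past its end and 40.2 kb before its start. In KO a LAD of 40.8 kb entered from the end of the gene and was shared with *Camk4*. It covered 59.5% of the span with exons 4 to 6 of 6. On its far side, 11.6 kb of the WT LAD was WT-only, and 4 WT-only DRs lay within 100 kb of the gene. *Npc1*, which exports cholesterol from lysosomes, was 584 kb from a LAD in WT and 64.3 kb in KO. Its partner *Npc2* was the most distant member in WT, at 2328 kb, and was at 1325 kb in KO. *Soat1* and *Soat2*, which esterify cholesterol, were 54.7 and 534 kb away in WT and 52.3 and 335 kb in KO.

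The KO-only DRs on the IP members were of 2 kinds. Those at *Idi1*, *Sqle*, *Msmo1*, the end of *Cyp51* and the end of *Mbtps2* were whole KO LADs with no WT LAD in contact. Those at *Hsd17b7*, *Stard4*, the start of *Cyp51* and the start of *Mbtps2* were parts of KO LADs that adjoined a WT LAD. Their lengths ran from 11.5 to 54.5 kb, and the median of all KO-only DRs was 18 kb. A median of 59.5% of the span lay in KO-only DRs over the 7 IP members, and 42.8% over all 3826 IP genes. Over the 2961 IP genes with no WT LAD on the span, as at the members, it was 48.6%. The median span was 16.1 kb for the IP members and 35.2 kb for all IP genes. A DR of a given length fills more of a shorter gene, and the part of gene length in these shares was not tested.

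The surroundings of the members are given here by gene number and base composition, as description. The median number of other protein-coding genes with a start within 500 kb of the gene's start was 8 for IP members and 19 for II members. It was 9 over all IP genes and 15 over all genes. The GC content of the 100 kb around the start had a median of 41.5% for IP members, 47.1% for II members, 43% over all IP genes and 44.2% over all genes. The lower gene number and GC content were thus seen over IP genes in general. The density of GATC sites was alike in the sets, with 2.58 per kb in IP members, 2.41 in II members and 2.41 over all genes. Every located member held at least 18 GATC sites in its span. The part of GC content in the classes was not tested.

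Stretches that were LAD in WT only also lay near several members. For 9 of 31 members (29.0%) a WT-only DR was within 100 kb of the span, with 15.4% of the reference genes and 28.5% of all genes. Most of these DRs were parts of longer WT LADs, such as 21.7 of 69.1 kb at *Nsdhl*, whereas those nearest to *Idi1* and *Insig1* were whole WT LADs. Over the 1 Mb around the start, the LAD share was higher in KO for 19 members, lower for 7 and 0% in both for 5. The 61.3% of members with a higher share in KO stood beside 72.2% of the reference genes and 63.0% of all genes, so it was no larger than the background. A lower share in KO was seen for 22.6% of members, 17.4% of the reference genes and 29.4% of all genes. The share was 0% in both genotypes for 16.1%, 10.4% and 7.26%, in the same order. *Nsdhl* had the widest difference toward KO, with 50.2% in WT and 76.5% in KO, followed by *Acat1* with 7.19 and 31.7%. *Acat2* had the widest difference toward WT, with 42.4 and 33.6%.

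**Figure D4:**
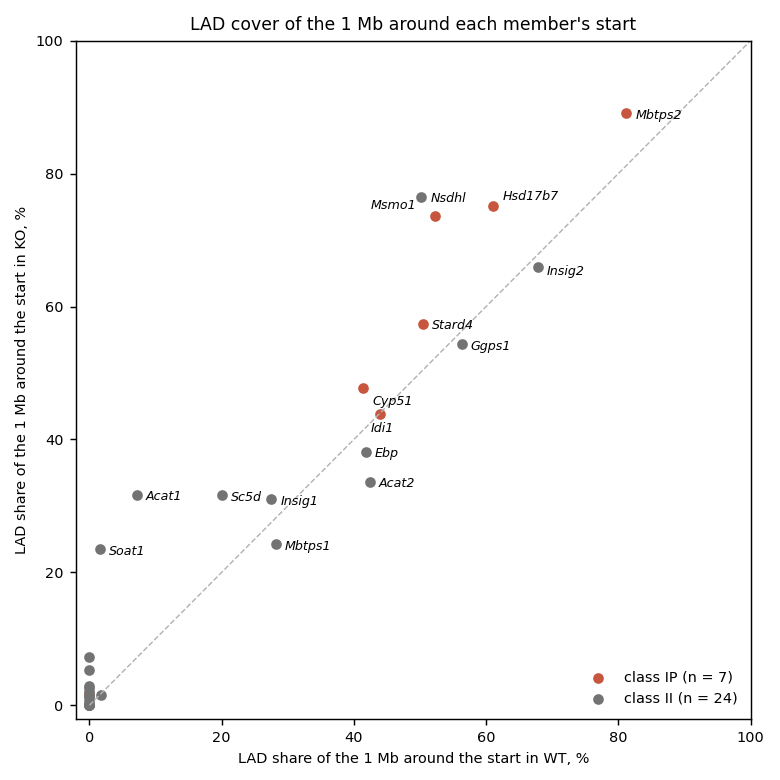
Percent of the 1 Mb around the start of each member that lay in LADs in WT (x axis) and KO (y axis), with 7 members of class IP in red and 24 of class II in gray. The dashed line marks equal shares, and 19 members lie above it.

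The nearest LAD was nearer in KO than in WT for 29 of 31 members (93.5%), and for 86.8% of the genes with no WT LAD on the span. The KO list also holds 16076 LADs and the WT list 8107, with shorter LADs in KO and a like cover of the genome by the study's account. The median distance of members was 299 kb in WT and 71.9 kb in KO, and that of the reference genes was 307 and 71.6 kb. Members and reference genes were thus nearly alike at the median. In WT, 12 members (38.7%) lay under 100 kb from a LAD, with 28.9% of the reference genes, and 9 (29.0%) lay at least 1 Mb away, with 20.1%. In KO, 17 members (54.8%) lay under 100 kb from a LAD, with 56.3% of the reference genes, and *Mvd* and *Npc2* lay at least 1 Mb away (6.45%, with 1.07%). These differences rest on few genes and were not tested. Among the 24 II members, the ratio of the WT to the KO distance had a median of 1.68 and ran from 0.817 at *Ebp* to 151 at *Nsdhl*, and its median was 2.59 over the reference genes with no LAD on the span in either genotype.

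**Figure D5:**
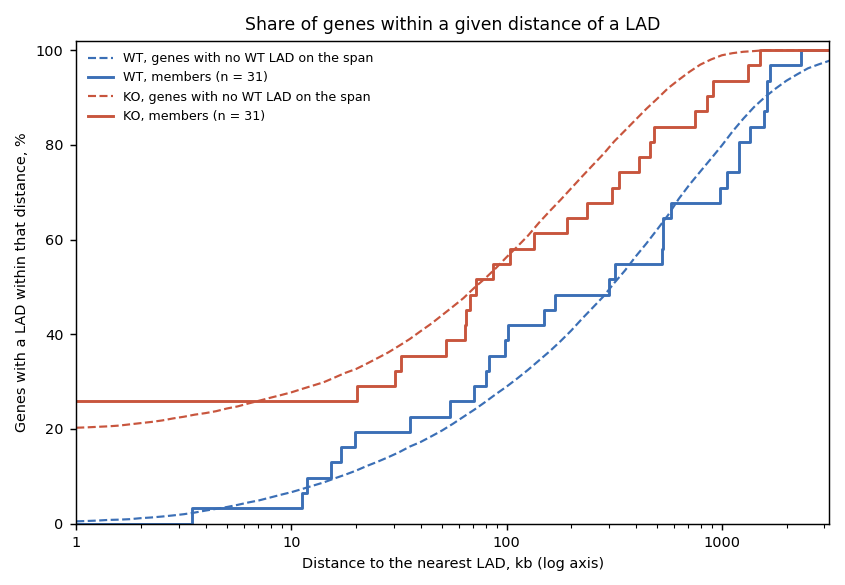
Percent of genes (y axis) with a LAD within the distance on the x axis, in kb on a log axis, for the 31 members (solid steps) and for the 15562 genes with no WT LAD on the span (dashed lines), in WT (blue) and KO (red). The red curves lie above the blue ones. The members' curve in KO starts above its dashed line and then runs mostly below it. It meets that line again around 100 kb and lies below it at larger distances.

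A further list of 29 genes of sterol and isoprenoid metabolism that are not members showed a like share. Of these, 7 were IP (24.1%), with 17.1% over all genes and 19.0% of the reference genes, 22 were II and none was PI. Class II here does not mean free of LADs, since a KO LAD lay on 29.6% of the span of an II gene without a DR there. On the isoprenoid branches 3 of 8 were IP, with *Coq2*, which prenylates the ubiquinone ring, covered over 69.0% of its span, *Pggt1b*, a prenyltransferase subunit, over 11.2%, and *Pdss2*, which builds the ubiquinone side chain, over 7.30%. Among genes of sterol movement and ester cleavage 4 of 9 were IP, namely *Gramd1c* (41.4%), *Gramd1b* (33.0%), *Stard5* (32.6%) and *Nceh1* (12.4%), and *Gramd1b* also had 38.5% of its span in WT LADs. None of 9 genes of ER degradation and sterol sensing and none of 3 electron donors was IP. The counts by role rest on few genes and were not tested.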

How the data were processed

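LaminB1 DamID was carried out by the authors on pooled hepatocyte DNA, 4 mice per library. Per the labels and the study's methods, reads were mapped to mm9, the fusion signal was divided by that of unfused Dam per fragment, and LADs were segmented with DNAcopy. BWA and limma are named in the submitters' processing notes without a role. Used here were the deposited positions of LADs (2 lists) and DRs (2 lists), pooled over mice and without a signal. All 7787 WT-only and 8208 KO-only DRs equalled a fresh subtraction of the LAD lists with a minimum of 10 kb.

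Genes were taken from the GENCODE annotation of NCBIM37, the assembly of mm9. No LAD ran past a chromosome end. Positions are 1-based. Classes used the gene span and an overlap of 1 base, and exons came from the coding transcript with the largest exonic length. Distances run from the span to the nearest LAD. Python 3.11.15, numpy 2.4.6, pysam 0.24.0 and matplotlib 3.10.9 were used, and overlap and distance steps, tested on simulated data, gave 0 errors.

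Every member was named, with full values for members of class IP, for *Tm7sf2* and for the 3 II members that end nearest to a KO LAD. Of the further list only genes outside class II were named, and of neighbors only those overlapping a DR of a member. The members and lists were chosen with earlier results of these data known, and the sequence motifs after the lists had been read. No test was made, since each genotype has 1 library pair. Other overlaps, lengths and gap settings were tried as alternatives. Single-fragment profiles, FISH and expression data are not analysed here, and some genes of sterol metabolism are not reported.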

Additional observations from a re-analysis of the deposited data

How the results depend on the processing

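Of 82 values recomputed under other settings, 63 stayed within a factor of 1.5, and these include counts of 0 that stayed 0. None of the settings gave a PI member. With no WT LAD on any span, a PI member was possible only with the 100 kb window or the joined LADs. The number of IP members was 4 by the transcription start alone (*Sqle*, *Cyp51*, *Msmo1* and *Mbtps2*), 3 with DRs of at least 20 kb (*Cyp51*, *Msmo1* and *Mbtps2*) and 4 with LADs of at least 20 kb, against 6 or 7 under the other settings. With 100 kb centered on the gene, 6 members were IP, 4 were AMB (*Idi1*, *Nsdhl*, *Hsd17b7* and *Stard4*) and 1 was PP (*Insig2*). With LADs joined across gaps of up to 50 kb, *Hsd17b7* was the 1 PP member and the 1 member with a WT LAD on the span. Members with a KO LAD numbered 4 with LADs of at least 20 kb and 4 when the start alone was asked for, and with LADs of at least 20 kb the median distance was 535 kb in WT and 155 kb in KO. By construction, these settings use fewer intervals or a narrower target or, for the window and the joined lists, a wider one.

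Over all genes, IP genes numbered 1687 when a DR had to fill 50% of the span, 6062 with the 100 kb window and 2486 with DRs of at least 20 kb. PI genes numbered 498 at 50% of the span, 498 by the start, 2172 with the 100 kb window, 727 with DRs of at least 20 kb and 628 with joined LADs. The IP share of members stood beside that of all genes at 19.4% and 7.54% when 50% of the span had to be filled, 12.9% and 12% by the start, 9.68% and 11.1% with DRs of at least 20 kb, 12.9% and 13.4% with LADs of at least 20 kb, and 19.4% and 27.1% with the 100 kb window. The members' share was thus above that of all genes under some settings and below it under others. When 50% of the span had to be filled, gene length also entered. The median span under the main setting was 16.1 kb for IP members and 35.2 kb for all IP genes. Shares over the reference genes, the closer comparison, were not computed for these settings. No paired analysis was possible because each genotype has 1 library of each construct and no result comes from a test. Without replicate libraries no spread between animals can be given, and the lists hold no depth.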
